A study of Mus musculus with 20 samples.

Results

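The core proteins of the spliceosome and of its small nuclear ribonucleoproteins (snRNPs) were followed as a set of 39 genes in mouse bone marrow that expressed wild-type or mutant U2AF1 and received either sudemycin D6 or vehicle. The 39 genes were chosen by name, as genes for the Sm core, the U1, U2, U5 and U4/U6 snRNP proteins, U1-associated proteins, the Prp19-related complex and the DExD/H-box helicases of splicing, and each symbol matched 1 Ensembl gene of the 37620 in the count table. Gene counts and reads on splice junctions were available from 20 mice in 4 groups of 5. WT vehicle mice carried marrow with a doxycycline-inducible U2AF1(WT) transgene together with rtTA, the transactivator that doxycycline switches on, and received vehicle. WT sudemycin mice carried the same transgenes and received sudemycin D6, a splicing modulator that binds the SF3B1 complex. S34F vehicle and S34F sudemycin mice carried U2AF1(S34F) in place of U2AF1(WT), again with rtTA, and received vehicle or sudemycin D6. All 20 mice, the WT vehicle group included, were recipients of transplanted donor marrow that had engrafted for more than 6 weeks, all received doxycycline chow at 625 ppm for 7 days, and drug or vehicle was infused over the last 5 of these days. Donor marrow was pooled from several transgenic mice of 1 genotype before transplantation into lethally irradiated recipients, so that mice of a genotype can share donors, and no separation of donor from host cells is described in the sources used here. The age of the mice at RNA extraction is not given in the labels.

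The gene counts of a mouse summed to between 41145892 and 62138138, and the junction reads to between 34384214 and 64813149. U2af1 itself had 1496 to 2280 counts in the 10 WT mice and 2514 to 3274 in the 10 S34F mice, which does not separate the transgene from the mouse gene. Genotype and sex-linked transcripts went together: Xist, transcribed from the inactive X chromosome, had 39145 to 78640 counts in the WT mice and 1 to 8 in the S34F mice, and 4 Y-linked genes summed to 0 to 4 and 10270 to 15034 counts. Every difference between genotypes reported below is therefore also one between marrows of different sex, and the mutation, the sex and the donor pool cannot be told apart. The marrow was rich in neutrophil markers, with a summed level of 63512 to 71253 CPM (counts per library of fixed size) over 11 genes in WT vehicle mice and 84974 to 138143 CPM in S34F vehicle mice. Under sudemycin the sums overlapped, at 58852 to 102062 CPM in WT and 73246 to 119817 CPM in S34F mice. All of the listed markers of neutrophils, monocytes, erythroid, B, T/NK, megakaryocytic and stem or progenitor cells were detected in these marrows.

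Introns are removed by a machine that is assembled anew on each pre-mRNA. The U1 snRNP first pairs with the 5′ splice site, U2AF1 reads the AG at the 3′ splice site and helps to place the U2 snRNP at the branch point through its SF3B1 complex, and the U4/U6.U5 tri-snRNP then joins and is remodelled by helicases into the catalytic form. The ring of Sm proteins is shared by the U1, U2, U4 and U5 snRNPs, and dividing haematopoietic precursors make snRNPs in large amounts. U2AF1(S34F), a mutation of myelodysplastic syndromes, is known to alter which 3′ splice sites are used according to the base just before the AG. Several genes for splicing factors carry exons whose inclusion or skipping brings a premature stop codon, a known means by which their own transcripts are limited.

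Per length, all 39 members had a mean level above the median gene. Levels are given as RPKM, reads scaled to the length of the annotated exons and to library size, over the 20 mice. The median member stood at 17.1 RPKM, whereas the median of the genes tested stood at 4.24 RPKM. Dhx15, the helicase that takes spliceosomes apart, had the highest level at 68.4 ± 8.46 (SD, n = 20), followed by Snrnp70, the U1 protein that binds the first stem-loop of U1 RNA, at 62.6 ± 3.37, Prpf8, the scaffold of the catalytic centre, at 58.8 ± 6.65, and Snrpb, the gene for SmB/B′, at 58.6 ± 5.41. Prpf4, a U4/U6 protein, had the lowest level at 4.56 ± 0.364, so that the members spanned 15.0-fold. By role, the median member stood at 41.03 RPKM in the Sm core, 30.7 in the Prp19-related complex, 21.3 among the helicases, 17.1 in the U5 snRNP, 16.9 among U1-associated proteins, 11.9 in the U1 snRNP, 10.1 in the U2 snRNP and 7.64 in the U4/U6 group. The order from 1 gene to the next was not resolved: in all 38 neighbouring pairs the ranges over the 20 mice overlapped. For 1 gene, the highest mouse exceeded the lowest by 1.27-fold to 2.56-fold, with a median of 1.54-fold.

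**Figure D1:**
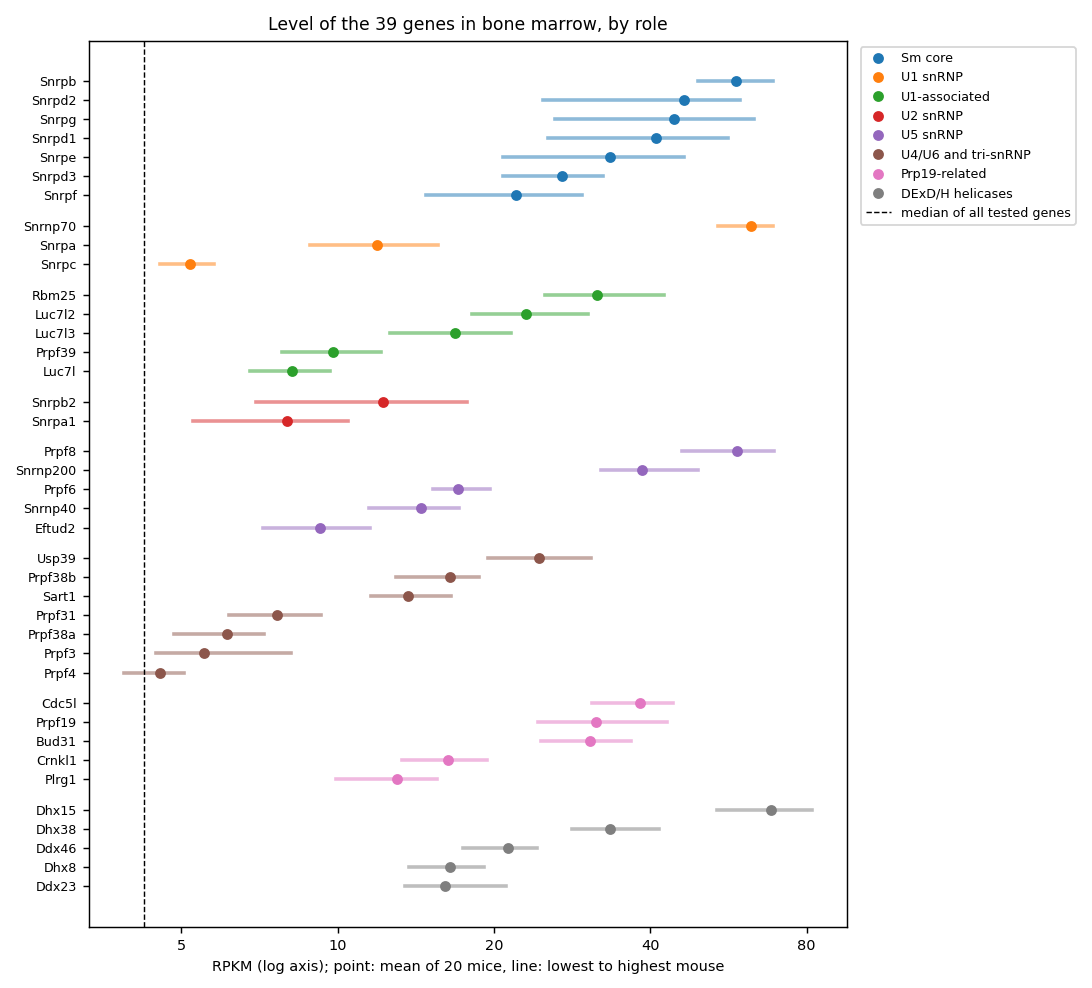
Level of each of the 39 genes in RPKM on a log axis, with the point at the mean of 20 mice, the line from the lowest to the highest mouse, the colour giving the role and the dashed line the median of all genes tested at 4.24 RPKM. Dhx15 lies highest at a mean of 68.4 RPKM and Prpf4 lowest at 4.56 RPKM, and neighbours in the order overlap in range.

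The sequences on which the splicing results turn are those of the splice sites and stop codons of a few alternative exons. All were read from the mouse genome build NCBIM37 (mm9), to which the reads had been aligned, 5′ to 3′ on the strand of the gene. The 3′ splice sites of the cassette exons that differed in at least 1 comparison are shown first, as the last 20 bases of the intron and the first 3 of the exon. The base at position -3, directly before the AG, is in capitals, since it is the base at which U2AF1(S34F) is known to act.
Luc7l2 84-bp exon (chr6:38504960-38504982, + strand): ttctttgcaattttgccTagggc
Luc7l2 30-bp exon (chr6:38548765-38548787, + strand): agtagatattcttttttTaggtc
Prpf39 100-bp exon (chr12:66156401-66156423, + strand): aactatatctgttgcatTaggag
Prpf38b 53-bp exon (chr3:108713311-108713333, - strand): agttcttgtttcgttagCaggat
Luc7l 71-bp exon (chr17:26390899-26390921, + strand): cctctattttatttataAaggtt
Rbm25 54-bp exon (chr12:85001238-85001260, + strand): ctttgtgggtttctctgCagatt
Both Luc7l2 exons and the Prpf39 exon have T at position -3, the Prpf38b and Rbm25 exons have C and the Luc7l exon has A.

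Joining of 3 of these exons to the coding transcripts that splice across them brought an in-frame stop codon within the exon, shown here in capitals with the bases around it because it is what the exon adds to the transcript.
Luc7l2 84-bp exon (chr6:38505000-38505026, + strand): cctgtgtgccacTGAaaatcgtgccga
Prpf39 100-bp exon (chr12:66156493-66156519, + strand): cagaaactagtcTAGtggttcaataaa
Prpf38b 53-bp exon (chr3:108713296-108713313, - strand): gatTGActcagtcttgca
The stop was reached in 2 of 2 coding transcripts for Luc7l2 and for Prpf39 and in 1 of 1 for Prpf38b, where 94 codons would remain of 542. The annotation places the Luc7l2 84-bp exon in the untranslated part of 2 transcripts and in 1 noncoding transcript, the Prpf39 exon in a transcript marked for nonsense-mediated decay, and the Prpf38b exon in 2 processed transcripts without a coding sequence. The Luc7l 71-bp exon, also in a transcript marked for decay, shifted the frame and left 79 codons of 325, with the stop beyond the exon. The 30-bp exon of Luc7l2 is coding in 3 transcripts, kept the frame and contained no stop in 6 of 6 coding transcripts. In all, 10 of the 39 members (25.6%) have a transcript annotated for nonsense-mediated decay, against 15.7% of 13685 protein-coding genes tested.

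Expression was first compared between the genotypes under vehicle, which asks what the mutant transgene changes in the set without drug. Of the 39 members, 15 were higher in S34F vehicle than in WT vehicle mice and 2 were lower at a false discovery rate below 10%. Among all 14817 genes tested, 39.5% were called, 19.7% higher and 19.8% lower, so the share of members called was near the background and their direction was not. The median log2 fold change was 0.11 over the members and 0.00 over all genes. Under sudemycin, 15 members were higher and 3 lower in S34F than in WT mice, where 36.8% of 14677 genes were called (17.2% higher, 19.6% lower) and the medians were 0.12 and -0.03. The 5 mice of a genotype lay wholly above the 5 of the other in 9 members under vehicle and in 10 under sudemycin, always with S34F higher, and groups did not overlap in either direction in 20.2% and 19.7% of all genes. These 2 comparisons share no mice, although genotype and sex went together in both and mice of a genotype can share donors. Fold changes and adjusted p-values are from edgeR's quasi-likelihood test with Benjamini-Hochberg adjustment over all genes tested, and a call means an adjusted p below 10%.

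Some other lists also leaned upwards in S34F marrow, and others did not. The 7 monocyte and macrophage genes had median log2 fold changes of -0.52 under vehicle and -0.01 under sudemycin. The 8 B-cell genes had -0.88 and -0.91. Among all genes, 19.7% were higher under vehicle and 17.2% under sudemycin. Of 17 proliferation genes, 8 were higher under vehicle and 14 under sudemycin, none was lower, and their summed level was 3115 to 4985 CPM in WT vehicle, 4724 to 5433 CPM in S34F vehicle, 3355 to 4194 CPM in WT sudemycin and 4733 to 5373 CPM in S34F sudemycin mice. Of 11 neutrophil genes, 5 and 4 were higher and none was lower. Of 6 stem or progenitor genes, 3 were higher under vehicle and none was lower, and none was called under sudemycin. Of 8 B-cell genes, none was called under vehicle and 4 were lower under sudemycin. The part of these in the differences of the members was not tested, and in such bulk marrow fewer cells of a type and less RNA per cell cannot be told apart. Short genes also leaned upwards under vehicle: over 4 equal classes of exon length, the median log2 fold change of all genes went from 0.08 in the shortest class through 0.04 and -0.02 to -0.08 in the longest. The 10 members in the shortest class had a median of 0.24, the next 8 of 0.28, the next 9 of -0.02 and the 12 in the longest class of 0.01.

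**Figure D2:**
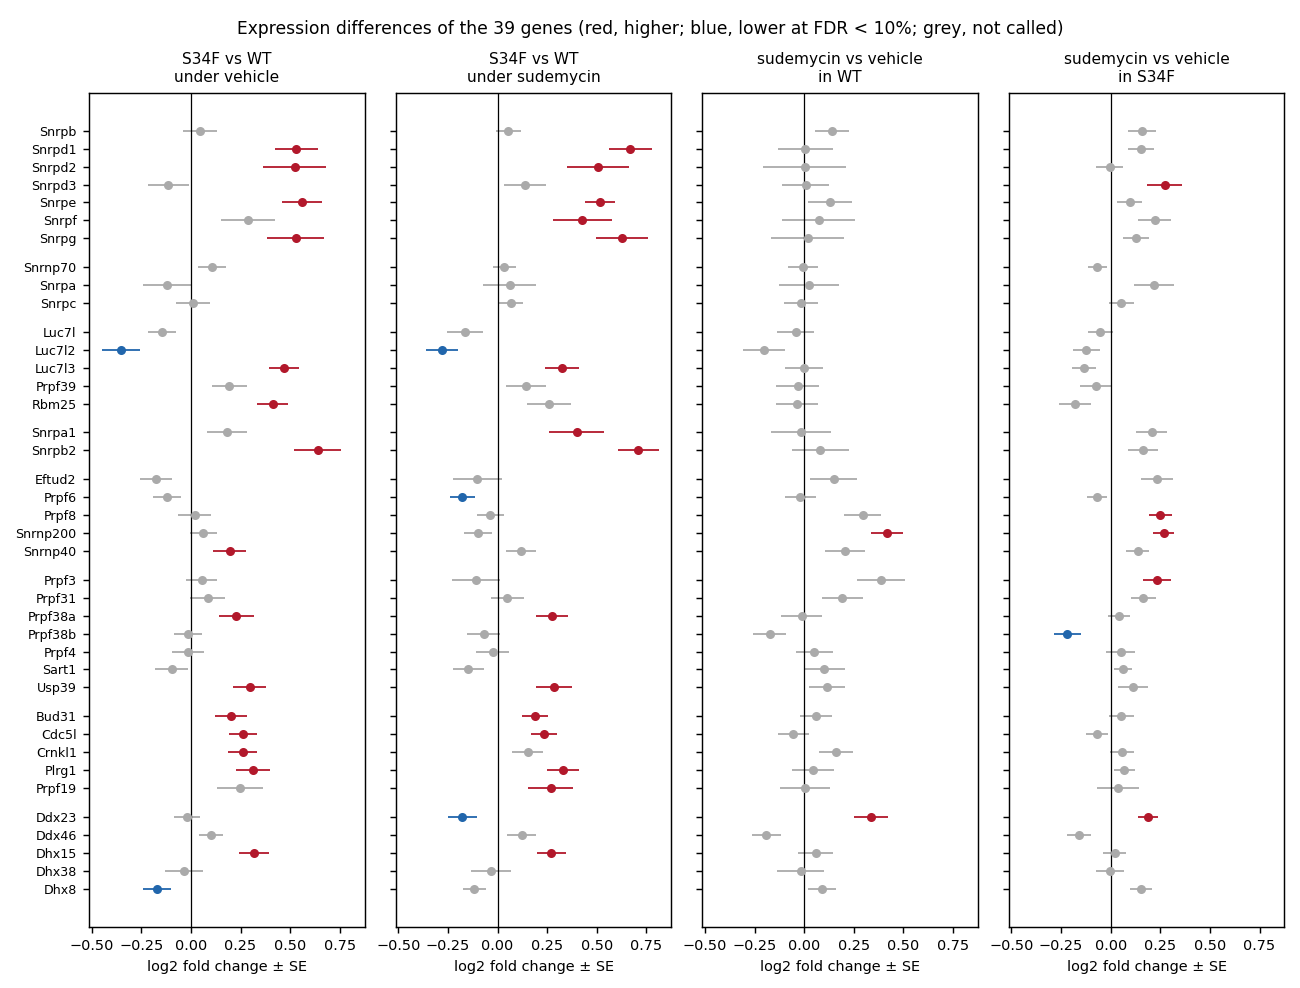
Log2 fold change of each of the 39 genes (points with bars of ± 1 SE; red, higher and blue, lower at a false discovery rate below 10%; grey, not called) in the comparisons of genotype under vehicle and under sudemycin and of drug in WT and in S34F mice, grouped by role. Snrpe, Snrpd1, Snrpg, Snrpd2 and the U2 genes lie to the right in the genotype panels, and Snrnp200, Prpf8 and Ddx23 lie to the right in the drug panels.

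The Sm core, the protein ring on which each snRNP is built, had 4 of 7 members higher in S34F mice under vehicle and 5 of 7 under sudemycin, with none lower and medians of 0.52 and 0.50. The called members were the genes for the Sm proteins E, D1, G and D2 in both comparisons, and SmF under sudemycin. Snrpe, the gene for SmE, was at 28.6, 33.0, 33.0, 39.2 and 43.0 CPM in WT vehicle mice and 49.0, 52.3, 52.7, 54.4 and 54.6 CPM in S34F vehicle mice. Every S34F vehicle mouse lay above every WT vehicle mouse (log2 fold change 0.56 ± 0.10 SE, edgeR adjusted p = 0.00135). Under sudemycin, Snrpe was at 36.5, 36.8, 38.8, 40.96 and 43.0 CPM in WT sudemycin mice and 49.99, 54.3, 55.3, 58.3 and 63.6 CPM in S34F sudemycin mice, again without overlap (log2 fold change 0.52 ± 0.08 SE, edgeR adjusted p = 0.000772). Snrpd1, the gene for SmD1, was at 21.3, 24.7, 26.7, 26.8 and 35.1 CPM in WT vehicle mice and 37.1, 37.3, 39.9, 40.6 and 41.5 CPM in S34F vehicle mice. No WT vehicle mouse reached the lowest S34F vehicle mouse (log2 fold change 0.53 ± 0.11 SE, edgeR adjusted p = 0.00327). Under sudemycin Snrpd1 was at 22.7, 23.4, 29.7, 29.9 and 31.3 CPM in WT sudemycin mice and 37.2, 43.2, 45.5, 45.6 and 47.2 CPM in S34F sudemycin mice, and every S34F sudemycin mouse lay above every WT sudemycin mouse (log2 fold change 0.67 ± 0.11 SE, edgeR adjusted p = 0.00125). Snrpg, the gene for SmG, was at 20.3, 22.2, 26.1, 27.6 and 39.02 CPM in WT vehicle mice and 35.2, 38.6, 40.2, 40.8 and 41.8 CPM in S34F vehicle mice. Here the groups overlapped, and 3 of 5 S34F vehicle mice lay above the highest WT vehicle mouse (log2 fold change 0.53 ± 0.14 SE, edgeR adjusted p = 0.0158). Under sudemycin Snrpg was at 21.6, 22.7, 28.8, 29.8 and 35.8 CPM in WT sudemycin mice and 39.7, 41.7, 41.9, 43.1 and 48.8 CPM in S34F sudemycin mice, and every S34F sudemycin mouse lay above every WT sudemycin mouse (log2 fold change 0.63 ± 0.13 SE, edgeR adjusted p = 0.00477).

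Snrpd2 showed a log2 fold change of 0.52 ± 0.16 SE under vehicle (edgeR adjusted p = 0.0249) and 0.50 ± 0.16 under sudemycin (edgeR adjusted p = 0.0315). Snrpf was called under sudemycin, at 0.43 ± 0.15 (edgeR adjusted p = 0.0514), and under vehicle stood at 0.29 ± 0.13 (edgeR adjusted p = 0.121). The genes Snrpb and Snrpd3 were not called in either comparison: Snrpb had log2 fold changes of 0.05 and 0.05, and Snrpd3 of -0.11 and 0.14. Some Sm genes have intronless copies elsewhere in the genome, to which unspliced reads can be assigned. When only reads across annotated junctions were counted, a check added after seeing the data, Snrpe was at 0.66, adjusted p = 0.00259 under vehicle and 0.62, adjusted p = 0.00107 under sudemycin, Snrpd1 at 0.47, adjusted p = 0.00484 and 0.60, adjusted p = 0.00269, and Snrpg at 0.51, adjusted p = 0.0185 and 0.60, adjusted p = 0.00283 (edgeR). These calls remained on spliced reads, and they also remained when any single mouse was left out.

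The 2 proteins A′ and B″ of the U2 snRNP, which bind U2 RNA as a pair, included the gene with the largest log2 fold change of the 39 in each of these comparisons. Snrpb2, the gene for B″, was at 19.9, 23.5, 24.7, 27.1 and 33.9 CPM in WT vehicle mice and 37.1, 38.0, 38.7, 43.8 and 45.2 CPM in S34F vehicle mice. The groups did not overlap, with the S34F mice higher (log2 fold change 0.64 ± 0.12 SE, edgeR adjusted p = 0.00191). Under sudemycin, Snrpb2 was at 23.6, 24.2, 28.5, 29.0 and 33.2 CPM in WT sudemycin mice and 42.1, 42.6, 42.6, 49.4 and 50.8 CPM in S34F sudemycin mice, with the groups again apart (log2 fold change 0.71 ± 0.10 SE, edgeR adjusted p = 0.000652). Both calls remained without any single mouse. Snrpa1, the gene for A′, was at 16.2, 18.5, 22.2, 25.7 and 27.96 CPM in WT sudemycin mice and 26.0, 29.0, 29.4, 29.6 and 32.3 CPM in S34F sudemycin mice. 4 of 5 S34F sudemycin mice lay above the highest WT sudemycin mouse (log2 fold change 0.40 ± 0.14 SE, edgeR adjusted p = 0.0509), and this call was lost without S34F sudemycin mouse 2 (edgeR adjusted p = 0.11). Under vehicle the log2 fold change of Snrpa1 was 0.18 ± 0.10 (edgeR adjusted p = 0.185), not a call.

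The U1 snRNP proteins proper were not called in any comparison. Snrnp70, Snrpa (the A protein) and Snrpc (the C protein) had log2 fold changes between genotypes of 0.11, -0.12 and 0.01 under vehicle and of 0.03, 0.06 and 0.07 under sudemycin. Snrpa, the member of the 3 with the smallest p, was at 15.6, 19.6, 19.7, 20.7 and 20.8 CPM in S34F vehicle mice and 19.6, 20.9, 21.9, 22.6 and 27.4 CPM in S34F sudemycin mice. 4 of 5 S34F sudemycin mice lay above the highest S34F vehicle mouse (log2 fold change 0.22 ± 0.10 SE, edgeR adjusted p = 0.223), and S34F vehicle mouse 7 stood apart as the lowest.

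The U1-associated proteins moved in both directions with genotype, with 2 of 5 higher and 1 lower under vehicle, and 1 higher and 1 lower under sudemycin. Luc7l3, a relative of yeast Luc7, which helps U1 to select 5′ splice sites, was at 95.6, 99.7, 101, 106 and 123 CPM in WT vehicle mice and 138, 141, 145, 150.2 and 157 CPM in S34F vehicle mice. Every S34F vehicle mouse lay above every WT vehicle mouse (log2 fold change 0.47 ± 0.08 SE, edgeR adjusted p = 0.000809). Under sudemycin, Luc7l3 was at 91.7, 103, 106, 107 and 124 CPM in WT sudemycin mice and 123, 126, 133, 142 and 143 CPM in S34F sudemycin mice, and 4 of 5 S34F sudemycin mice lay above the highest WT sudemycin mouse (log2 fold change 0.33 ± 0.09 SE, edgeR adjusted p = 0.0153). Rbm25, an RNA-binding protein that acts with U1 at alternative 5′ splice sites, was at 109, 113, 119, 125 and 129.7 CPM in WT vehicle mice and 152, 154, 155, 156 and 181 CPM in S34F vehicle mice. No WT vehicle mouse reached the lowest S34F vehicle mouse (log2 fold change 0.41 ± 0.08 SE, edgeR adjusted p = 0.00189), with S34F vehicle mouse 7 far above the other S34F mice. Under sudemycin Rbm25 was not called (log2 fold change 0.26 ± 0.11, edgeR adjusted p = 0.1002), and the difference between the 2 comparisons, tested as an interaction, was -0.16 (edgeR adjusted p = 0.858).

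Luc7l2, another Luc7 relative, went the other way and was lower in S34F marrow. It was at 261, 311, 332, 367 and 367 CPM in WT vehicle mice and 242, 245, 261, 272 and 275 CPM in S34F vehicle mice. 4 of 5 WT vehicle mice lay above the highest S34F vehicle mouse (log2 fold change -0.35 ± 0.10 SE, edgeR adjusted p = 0.0147). Under sudemycin Luc7l2 was at 268, 281, 283, 286 and 325 CPM in WT sudemycin mice and 219, 226, 234, 242 and 269.9 CPM in S34F sudemycin mice, and 4 of 5 WT sudemycin mice lay above the highest S34F sudemycin mouse (log2 fold change -0.28 ± 0.08 SE, edgeR adjusted p = 0.0209). On reads across annotated junctions the values were -0.23, adjusted p = 0.0648 under vehicle and -0.21, adjusted p = 0.0369 under sudemycin (edgeR). The calls of Luc7l2, Luc7l3 and Rbm25 remained without any single mouse. Luc7l had log2 fold changes of -0.15 and -0.16, and Prpf39, a U1 component in yeast, of 0.19 and 0.14, none of them called.

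Of the U4/U6 and tri-snRNP proteins, 2 of 7 were higher in S34F mice in each comparison. Usp39, which is needed to keep the tri-snRNP intact, was at 47.4, 48.8, 50.2, 53.5 and 53.7 CPM in WT vehicle mice and 55.8, 59.9, 60.0, 66.2 and 71.7 CPM in S34F vehicle mice. The groups did not overlap, with the S34F mice higher (log2 fold change 0.29 ± 0.08 SE, edgeR adjusted p = 0.0152). Under sudemycin Usp39 was at 49.5, 52.5, 52.7, 56.9 and 66.7 CPM in WT sudemycin mice and 62.5, 63.6, 66.4, 72.5 and 74.5 CPM in S34F sudemycin mice, and 2 of 5 S34F sudemycin mice lay above the highest WT sudemycin mouse (log2 fold change 0.28 ± 0.09 SE, edgeR adjusted p = 0.0322). Prpf38a, which joins before catalytic activation, was at 25.7, 26.7, 28.7, 32.9 and 33.4 CPM in WT vehicle mice and 33.3, 33.6, 33.7, 36.6 and 37.1 CPM in S34F vehicle mice. 4 of 5 S34F vehicle mice lay above the highest WT vehicle mouse (log2 fold change 0.23 ± 0.09 SE, edgeR adjusted p = 0.0638). Under sudemycin Prpf38a was at 25.9, 26.8, 31.4, 31.7 and 32.4 CPM in WT sudemycin mice and 33.7, 34.3, 35.9, 37.7 and 38.2 CPM in S34F sudemycin mice, and every S34F sudemycin mouse lay above every WT sudemycin mouse (log2 fold change 0.28 ± 0.08 SE, edgeR adjusted p = 0.025). The vehicle call of Prpf38a was lost without WT vehicle mouse 3, 4 or 5 or S34F vehicle mouse 1 or 7 (edgeR adjusted p = 0.112 to 0.156), and on annotated junction reads both were lost (0.21, adjusted p = 0.119 and 0.21, adjusted p = 0.113, edgeR). Prpf3, Prpf4, Prpf31, Sart1 and Prpf38b had log2 fold changes between -0.10 and 0.08 under vehicle and between -0.15 and 0.05 under sudemycin, none of them called.

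The Prp19-related complex, which stabilises the catalytic spliceosome, had 4 of 5 members higher in S34F mice in each comparison, with medians of 0.26 and 0.24. Plrg1 was at 27.9, 29.7, 30.3, 32.4 and 38.4 CPM in WT vehicle mice and 37.4, 38.9, 39.3, 41.6 and 41.7 CPM in S34F vehicle mice. 4 of 5 S34F vehicle mice lay above the highest WT vehicle mouse (log2 fold change 0.31 ± 0.09 SE, edgeR adjusted p = 0.0162). Under sudemycin Plrg1 was at 28.8, 31.4, 32.7, 34.1 and 39.1 CPM in WT sudemycin mice and 39.97, 40.5, 41.5, 43.2 and 43.8 CPM in S34F sudemycin mice, and every S34F sudemycin mouse lay above every WT sudemycin mouse (log2 fold change 0.33 ± 0.08 SE, edgeR adjusted p = 0.0108). Cdc5l, the Myb-like partner of Prp19, was at 97.2, 101, 107, 109 and 112 CPM in WT vehicle mice and 120.2, 122, 129.8, 131 and 132 CPM in S34F vehicle mice. Every S34F vehicle mouse lay above every WT vehicle mouse (log2 fold change 0.26 ± 0.07 SE, edgeR adjusted p = 0.0135). Under sudemycin Cdc5l was at 92.4, 99.2, 104, 108 and 111 CPM in WT sudemycin mice and 114, 119.5, 123, 123 and 128 CPM in S34F sudemycin mice, and every S34F sudemycin mouse lay above every WT sudemycin mouse (log2 fold change 0.24 ± 0.07 SE, edgeR adjusted p = 0.0194). Crnkl1, a scaffold protein of the complex, was called under vehicle, at 51.2, 52.1, 54.1, 54.6 and 60.0 CPM in WT vehicle mice and 62.8, 62.8, 63.8, 66.6 and 72.6 CPM in S34F vehicle mice. No WT vehicle mouse reached the lowest S34F vehicle mouse (log2 fold change 0.26 ± 0.07 SE, edgeR adjusted p = 0.0162). Prpf19, the ubiquitin ligase of the complex, was called under sudemycin, at 52.9, 53.7, 57.7, 71.2 and 77.7 CPM in WT sudemycin mice and 69.1, 74.0, 75.3, 78.9 and 81.6 CPM in S34F sudemycin mice. 2 of 5 S34F sudemycin mice lay above the highest WT sudemycin mouse (log2 fold change 0.27 ± 0.11 SE, edgeR adjusted p = 0.0964). The Prpf19 call was kept only without WT sudemycin mouse 6 or 10 or S34F sudemycin mouse 9, and without any of the other 7 it was lost (edgeR adjusted p = 0.109 to 0.18). Bud31 had log2 fold changes of 0.20 (edgeR adjusted p = 0.0729) and 0.19 (edgeR adjusted p = 0.0445). The calls of Plrg1, Cdc5l and Crnkl1 remained without any single mouse.

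Of the 5 helicases, 1 was higher and 1 lower in S34F mice in each comparison of genotype. Of the 5 U5 proteins, 1 was higher under vehicle and 1 lower under sudemycin. Of all genes, 39.5% were called under vehicle and 36.8% under sudemycin. Dhx15 was at 162, 167, 177, 189 and 201 CPM in WT vehicle mice and 215, 217, 221, 229 and 245 CPM in S34F vehicle mice. The groups did not overlap, with the S34F mice higher (log2 fold change 0.32 ± 0.08 SE, edgeR adjusted p = 0.00751). Under sudemycin Dhx15 was at 172, 183, 195, 198 and 198 CPM in WT sudemycin mice and 211, 223, 230.2, 234 and 247 CPM in S34F sudemycin mice, and every S34F sudemycin mouse lay above every WT sudemycin mouse (log2 fold change 0.27 ± 0.07 SE, edgeR adjusted p = 0.017), and both calls remained without any single mouse. Dhx8, which releases the spliced mRNA, was lower in S34F mice under vehicle, at 79.4, 80.02, 85.3, 86.2 and 86.3 CPM in WT vehicle mice and 69.1, 71.9, 72.6, 78.0 and 81.8 CPM in S34F vehicle mice. 3 of 5 WT vehicle mice lay above the highest S34F vehicle mouse (log2 fold change -0.17 ± 0.07 SE, edgeR adjusted p = 0.0821). This call remained only without WT vehicle mouse 2 or 5 or S34F vehicle mouse 5 or 7 (lost otherwise, edgeR adjusted p = 0.101 to 0.192), and it was not made on annotated junction reads (-0.15, adjusted p = 0.145, edgeR). Ddx23, which displaces U1 from the 5′ splice site, was lower in S34F mice under sudemycin (log2 fold change -0.18 ± 0.07 SE, edgeR adjusted p = 0.0941), a call that remained only without WT sudemycin mouse 6 or 9 (lost otherwise, edgeR adjusted p = 0.121 to 0.223) and stood at -0.04, adjusted p = 0.722 on junction reads. Ddx46 and Dhx38 were not called, with log2 fold changes of 0.10 and -0.04 under vehicle and 0.12 and -0.03 under sudemycin.

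Among the U5 proteins, Snrnp40, a WD-repeat protein of the U5 snRNP, was at 32.1, 32.4, 33.7, 35.8 and 42.0 CPM in WT vehicle mice and 37.8, 38.2, 40.5, 42.2 and 44.6 CPM in S34F vehicle mice. 2 of 5 S34F vehicle mice lay above the highest WT vehicle mouse (log2 fold change 0.19 ± 0.09 SE, edgeR adjusted p = 0.0987), and the call remained only without WT vehicle mouse 2 or S34F vehicle mouse 7 (lost otherwise, edgeR adjusted p = 0.106 to 0.207). Prpf6, a bridge between U5 and U4/U6, was at 63.2, 65.6, 70.0, 71.6 and 75.9 CPM in WT sudemycin mice and 59.0, 59.0, 60.7, 62.4 and 65.4 CPM in S34F sudemycin mice. 4 of 5 WT sudemycin mice lay above the highest S34F sudemycin mouse (log2 fold change -0.18 ± 0.06 SE, edgeR adjusted p = 0.0524), and the call was lost without WT sudemycin mouse 8 or 9 or S34F sudemycin mouse 2, 9 or 12 (edgeR adjusted p = 0.112 to 0.157). Prpf8, Snrnp200 and Eftud2, the 3 large U5 proteins, were called in neither comparison, with log2 fold changes from -0.18 to 0.06 under vehicle and from -0.10 to -0.04 under sudemycin.

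**Figure D3:**
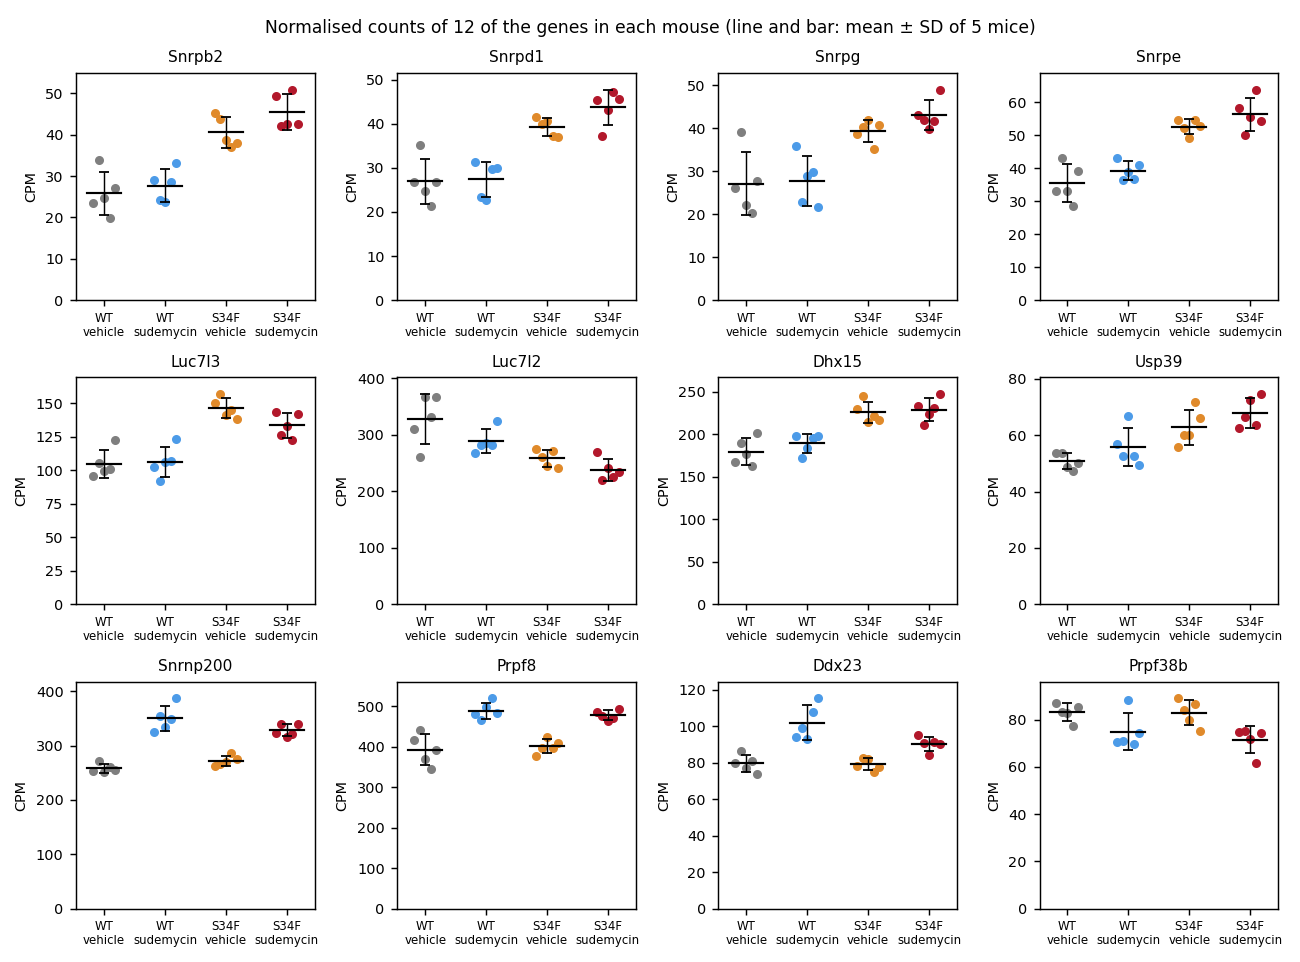
CPM of 12 members in each mouse, 1 point per mouse in the 4 groups, with the group mean and SD; each y axis starts at 0. Snrpe, Snrpd1 and Snrpb2 separate by genotype without overlap under either treatment, Luc7l2 is lower in S34F marrow with overlap, and Snrnp200, Prpf8 and Ddx23 separate by drug within each genotype.

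The drug was then compared with vehicle within each genotype, which asks how the set responds when the SF3B1 complex is targeted. In WT mice 2 of 39 members were higher with sudemycin and none was lower, where 3.07% of 14763 genes were called (1.18% higher, 1.89% lower). In S34F mice 5 were higher and 1 was lower, where 10.8% of 14714 genes were called (4.94% higher, 5.85% lower). The members' median log2 fold changes were 0.03 and 0.06, and those of all genes 0.00 and -0.01. The groups did not overlap in 4 members in WT mice (3 higher, 1 lower) and in 5 in S34F mice (4 higher, 1 lower), where 4.16% and 7.81% of all genes did not overlap. Ddx23, Prpf8 and Snrnp200 were the 3 members higher without overlap in WT mice, and with Prpf3 they were the 4 in S34F mice. The lower ones were Ddx46 in WT and Prpf38b in S34F mice. With all 20 mice in 1 fit and genotype as a term, 9 members were higher and 2 lower with sudemycin, where 15.0% of 15392 genes were called (7.78% higher, 7.22% lower).

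The U5 snRNP, which forms the catalytic core with Prpf8 at its centre, had 1 of 5 members higher with sudemycin in WT mice, 2 in S34F mice and 4 in the fit over both genotypes. Snrnp200, the helicase that unwinds U4 from U6, was at 251, 254, 254, 261 and 272 CPM in WT vehicle mice and 325, 334, 349, 354 and 387 CPM in WT sudemycin mice. Every WT sudemycin mouse lay above every WT vehicle mouse (log2 fold change 0.42 ± 0.08 SE, edgeR adjusted p = 0.0219). In S34F mice Snrnp200 was at 262, 266, 269.6, 274 and 287 CPM in S34F vehicle mice and 316, 321, 323, 339 and 340.4 CPM in S34F sudemycin mice, also without overlap (log2 fold change 0.27 ± 0.05 SE, edgeR adjusted p = 0.016). Both calls remained without any single mouse, the fit with genotype as a term gave 0.35 ± 0.05 (edgeR adjusted p = 3.12e-05), and the difference between the genotypes in the response was -0.17 ± 0.09 (edgeR adjusted p = 0.694). Prpf8 was at 346, 369, 393, 417 and 442 CPM in WT vehicle mice and 466, 480.2, 483, 498 and 519.9 CPM in WT sudemycin mice. Every WT sudemycin mouse lay above every WT vehicle mouse, but the adjusted p missed the threshold (log2 fold change 0.29 ± 0.09 SE, edgeR adjusted p = 0.158). In S34F mice Prpf8 was at 378, 397, 397, 411 and 425 CPM in S34F vehicle mice and 463, 471, 477, 487 and 495 CPM in S34F sudemycin mice, without overlap (log2 fold change 0.25 ± 0.06 SE, edgeR adjusted p = 0.0257), and this call remained without any single mouse. Over both genotypes Prpf8 stood at 0.28 ± 0.05 (edgeR adjusted p = 0.000616). Eftud2, the GTPase of the U5 snRNP, and Snrnp40 were called only in the fit over both genotypes, at 0.20 ± 0.07 (edgeR adjusted p = 0.0822) and 0.18 ± 0.06 (edgeR adjusted p = 0.0426). Prpf6 was not called, at -0.03 ± 0.04.

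Of the helicases, Ddx23 was higher with sudemycin in both genotypes. It was at 73.7, 77.1, 79.7, 81.1 and 86.3 CPM in WT vehicle mice and 93.0, 94.1, 99.0, 108 and 115 CPM in WT sudemycin mice. Every WT sudemycin mouse lay above every WT vehicle mouse (log2 fold change 0.34 ± 0.09 SE, edgeR adjusted p = 0.0696). In S34F mice Ddx23 was at 75.2, 77.8, 78.4, 82.1 and 82.6 CPM in S34F vehicle mice and 84.4, 90.3, 90.7, 91.5 and 95.0 CPM in S34F sudemycin mice, without overlap (log2 fold change 0.19 ± 0.05 SE, edgeR adjusted p = 0.0492), and over both genotypes it stood at 0.27 ± 0.05 (edgeR adjusted p = 0.00102). The WT call remained only without WT vehicle mouse 2 or WT sudemycin mouse 6 or 9 (lost otherwise, edgeR adjusted p = 0.11 to 0.198), and the S34F call was lost without S34F vehicle mouse 1 or 11 or S34F sudemycin mouse 2 (edgeR adjusted p = 0.104 to 0.123). On annotated junction reads Ddx23 was not called within either genotype (0.31, adjusted p = 0.175 in WT and 0.15, adjusted p = 0.161 in S34F mice, edgeR). Ddx46, which acts when U2 joins, was lower over both genotypes at -0.16 ± 0.04 (edgeR adjusted p = 0.0181), and Dhx8 was higher at 0.13 ± 0.04 (edgeR adjusted p = 0.0409). Dhx15 and Dhx38 stood at 0.05 and 0.00 and were not called.

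In the U4/U6 group, Prpf3, which binds U4/U6 as a partner of Prpf4, was at 25.3, 27.9, 28.3, 30.4 and 30.6 CPM in S34F vehicle mice and 30.7, 31.5, 34.2, 35.6 and 35.8 CPM in S34F sudemycin mice. Every S34F sudemycin mouse lay above every S34F vehicle mouse (log2 fold change 0.23 ± 0.07 SE, edgeR adjusted p = 0.0692). In WT mice Prpf3 was at 0.39 ± 0.12 (edgeR adjusted p = 0.158), and over both genotypes at 0.32 ± 0.07 (edgeR adjusted p = 0.00602). The S34F call was lost without S34F vehicle mouse 1, 3 or 7 or S34F sudemycin mouse 2, 10 or 12 (edgeR adjusted p = 0.102 to 0.152). Prpf38b, a relative of Prpf38a, was lower with sudemycin, at 75.3, 79.97, 84.2, 86.6 and 89.0 CPM in S34F vehicle mice and 61.4, 71.6, 74.3, 74.8 and 74.9995 CPM in S34F sudemycin mice. Every S34F vehicle mouse lay above every S34F sudemycin mouse (log2 fold change -0.22 ± 0.07 SE, edgeR adjusted p = 0.0796). In WT mice Prpf38b stood at -0.17 ± 0.08 (edgeR adjusted p = 0.393), and over both genotypes at -0.18 ± 0.05 (edgeR adjusted p = 0.027). The S34F call of Prpf38b remained only without S34F vehicle mouse 5 or 11 or S34F sudemycin mouse 6 (lost otherwise, edgeR adjusted p = 0.101 to 0.172), and on junction reads Prpf3 and Prpf38b were not called in S34F mice (0.15, adjusted p = 0.311 and -0.10, adjusted p = 0.396, edgeR). Prpf31, a further U4 protein, was higher over both genotypes at 0.19 ± 0.06 (edgeR adjusted p = 0.0427), while Prpf4, Sart1, Usp39 and Prpf38a were not called, at 0.06, 0.09, 0.12 and 0.03.

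The Sm core had a single drug call within a genotype. Snrpd3, the gene for SmD3, was at 13.4, 13.5, 14.9, 14.97 and 17.9 CPM in S34F vehicle mice and 16.8, 17.2, 18.1, 18.6 and 19.6 CPM in S34F sudemycin mice. 3 of 5 S34F sudemycin mice lay above the highest S34F vehicle mouse (log2 fold change 0.27 ± 0.09 SE, edgeR adjusted p = 0.0875), and the call remained only without S34F vehicle mouse 5 (lost otherwise, edgeR adjusted p = 0.101 to 0.171). Over both genotypes Snrpb was higher with sudemycin at 0.16 ± 0.05 (edgeR adjusted p = 0.0534), and the other 6 Sm genes were not called. The U1, U1-associated, U2 and Prp19-related members, 15 in all, had no drug call in either genotype or in the fit over both (edgeR). Luc7l2 and Crnkl1 alone among them had an unadjusted p below 0.05 in the fit over both, where 3757 of all 15392 genes did.

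No difference between the genotypes in the response to the drug was called in any member. The interaction was called in 0 of 39 members by edgeR and by DESeq2. No member reached an unadjusted p below 0.05 in edgeR, where 1144 of all 15392 genes did. Of all 15392 genes, 0.0130% (2 genes) were called by edgeR and 116 genes by DESeq2. With both changes together, S34F sudemycin mice against WT vehicle mice, 24 members were higher and 4 lower, where 50.2% of 14761 genes were called, 25.1% in each direction. The members' median was 0.26 and that of all genes 0.00. This comparison shares its mice with the others and adds no independent replicate. The 4 lower members were Luc7l, Luc7l2, Prpf6 and Prpf38b, at -0.18, -0.46, -0.17 and -0.22. With sudemycin, 2 of 6 markers of stem or progenitor cells were lower in WT and 5 of 6 in S34F mice. Their sums were 246 to 313 (WT vehicle), 187 to 278 (WT sudemycin), 286 to 349.7 (S34F vehicle) and 204 to 283 CPM (S34F sudemycin). Of the B-cell markers, 3 of 8 were lower in WT and 2 of 8 in S34F mice. The B-cell sums were 42.5 to 132 (WT vehicle), 24.1 to 159 (WT sudemycin), 18.6 to 173 (S34F vehicle) and 34.3 to 53.6 CPM (S34F sudemycin). Their medians were 118, 129, 53.5 and 40.4 CPM in the same order, so the WT median was not lower with sudemycin. Over the 8 B-cell genes the median log2 fold change was -0.10 in WT and -0.76 in S34F mice. Proliferation genes had no drug call in WT mice and 4 of 17 higher in S34F mice. In the combined comparison all 17 proliferation genes and 5 of 11 neutrophil genes were higher, and all 8 B-cell genes and 3 of 6 stem or progenitor genes were lower. The part of these lists in the drug and combined results was not tested.

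Other genes of the pathway were counted for comparison. The 8 LSm proteins, which form the ring on U6 RNA or the cytoplasmic decay ring, had 4 members higher in S34F mice under vehicle and 3 under sudemycin, with none lower and medians of 0.30 and 0.22. Of 16 tested genes of snRNP assembly, such as the SMN complex that loads Sm rings onto snRNAs, 3 were higher under vehicle, and 6 were higher and 1 lower under sudemycin. Of 9 proteins of the minor spliceosome, 1 was higher and 1 lower under vehicle, with none called under sudemycin. Of 25 later spliceosome factors, 10 were higher and 5 lower under vehicle, and 7 higher and 2 lower under sudemycin. Over all 58 of these genes, the medians of 0.13 and 0.14 were close to the members' 0.11 and 0.12. Sudemycin gave 1 call, higher, among the 58 genes in WT mice, and 6 higher and 2 lower in S34F mice.

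Splicing of the members' own transcripts was measured as the percent spliced in (Ψ, here a fraction from 0 to 1), the share of transcripts with an exon as read from its inclusion and skipping junctions. Across all comparisons 191 events in 35 of the 39 members carried enough reads, and Prpf19, Snrpd1, Snrpd2 and Snrpg had none. A call needed an adjusted p below 10% and a difference in mean Ψ (ΔΨ) above 1%. Under vehicle 4 of 144 events in the members differed between genotypes, against 2.41% of all 42833 events. Under sudemycin 2 of 145 did, against 2.44% of 42906. With sudemycin, 1 of 135 events differed in WT mice (0.761% of all 41416 events) and 1 of 155 in S34F mice (1.42% of all 43600 events). With both changes together 8 of 150 differed (5.09% of all events), and in the drug fit over both genotypes 1 of 189 (1.44% of all events). The 8 overlap in part. They count the Luc7l2 84-bp exon with an annotated and with an unannotated skipping junction. The 3′ splice site of the Luc7l 71-bp exon was counted in a cassette event and as an alternative site. No interaction was called (0% of all events by edgeR, and 0 by limma). For the interaction, 4 of 189 member events and 2331 of all 52051 events had an unadjusted edgeR p below 0.05. The members' shares were thus near the background in the comparisons of genotype. These calls rest on edgeR's quasi-likelihood form without a further dispersion term. With an estimated dispersion no event of any gene was called, and limma on Ψ called 0 events of members within each genotype or treatment and 1 each in the combined comparison and the drug fit over both genotypes. The edgeR test of an event also leaned on a spread shared over all events. Its median prior degrees of freedom were 90.3 and 255 for genotype under vehicle and sudemycin, 34.3 for the drug in WT mice and infinite for the drug in S34F mice and in the combined comparison, against 8 from an event's own values. An exon's own spread between mice therefore weighed less in its p-value than the shared spread, also where a mouse was left out, and the values of each mouse and the limma result are given beside each call.

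The largest called difference between genotypes under each treatment was in the 84-bp exon of Luc7l2, which was skipped more in S34F mice, and the 30-bp exon of Luc7l2 was skipped more under vehicle. For the 84-bp exon (chr6:38504980-38505063), Ψ was 0.315, 0.369, 0.397, 0.472 and 0.598 in WT vehicle mice and 0.204, 0.233, 0.237, 0.267 and 0.272 in S34F vehicle mice, from 86 to 299 inclusion and 77 to 234 skipping reads a mouse over the 20 mice. Every WT vehicle mouse lay above every S34F vehicle mouse (means 0.430 ± 0.110 and 0.243 ± 0.027 SD, n = 5 each, ΔΨ -0.188, edgeR adjusted p = 0.000374). Under sudemycin Ψ was 0.327, 0.414, 0.449, 0.569 and 0.586 in WT and 0.192, 0.218, 0.244, 0.250 and 0.270 in S34F mice, again without overlap (ΔΨ -0.234, edgeR adjusted p = 6.37e-07). The WT mice spread more widely than the S34F mice, with SDs of 0.110 and 0.109 against 0.027 and 0.030. The 2-sided exact permutation test of single Ψ values gave p = 0.00794 in each comparison, the smallest that 5 against 5 mice allow, and 0.0476 after adjustment over 36 such tests, although the exon was picked by its calls in the same mice. By limma the adjusted p was 0.279 and 0.15. With sudemycin its Ψ was 0.469 ± 0.109 in WT and 0.235 ± 0.030 in S34F mice, with no call against vehicle.

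For the 30-bp exon of Luc7l2 (chr6:38548785-38548814), which adds codons without a stop, Ψ was 0.509, 0.517, 0.526, 0.545 and 0.547 in WT vehicle mice and 0.426, 0.431, 0.478, 0.486 and 0.501 in S34F vehicle mice. Every WT vehicle mouse lay above every S34F vehicle mouse, by a small margin (ΔΨ -0.065, edgeR adjusted p = 0.00672, limma 0.262). Under sudemycin the difference was -0.014 (edgeR adjusted p = 0.795) and was not called, and WT sudemycin mice, at 0.464 ± 0.061, lay near the S34F groups, at 0.464 ± 0.034 and 0.449 ± 0.018. In the combined comparison it was -0.080 (edgeR adjusted p = 9.8e-06, limma 0.0159). Both Luc7l2 calls under vehicle remained without any single mouse, which is no sign of stability, since these fits rested mainly on the spread shared over all events.

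The Prpf39 exon (chr12:66156421-66156520) that carries a stop codon was also skipped more in S34F mice under sudemycin. Ψ was 0.290, 0.320, 0.373, 0.383 and 0.389 in WT and 0.169, 0.203, 0.208, 0.217 and 0.305 in S34F sudemycin mice. 4 of 5 WT sudemycin mice lay above the highest S34F sudemycin mouse (ΔΨ -0.130, edgeR adjusted p = 0.000707, limma 0.171). Under vehicle Ψ was 0.199, 0.236, 0.261, 0.267 and 0.276 in WT and 0.126, 0.2, 0.202, 0.209 and 0.219 in S34F mice (ΔΨ -0.057, edgeR adjusted p = 0.283), not a call. Against vehicle, the WT sudemycin values lay higher without overlap, with ΔΨ 0.103, although the adjusted p was 0.148 (edgeR), not a call. The exact permutation test of these values gave p = 0.00794, the smallest possible, and 0.0476 after adjustment over 36 tests. The exon was picked by a call that shares the WT sudemycin mice. In S34F mice ΔΨ against vehicle was 0.029, and the groups overlapped.

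Events with more inclusion in S34F mice were small. In Plrg1, use of the downstream 1 of 2 alternative 5′ splice sites (chr3:82863276-82863302, 27 bp, + strand) rose under vehicle. Its donor reads ccggtaagt and that of the shorter form caggcaccc, with GC in place of GT at the start of the intron. Ψ of the longer form was 0.898, 0.907, 0.919, 0.953 and 0.956 in WT and 0.963, 0.969, 0.978, 0.986 and 1 in S34F vehicle mice. Every S34F vehicle mouse lay above every WT vehicle mouse (ΔΨ 0.052, edgeR adjusted p = 0.0718, limma 0.25), on at most 24 reads of the shorter form a mouse. The call was lost without WT vehicle mouse 1, 3 or 5 or S34F vehicle mouse 1 or 11 (edgeR adjusted p = 0.108 to 0.193). Under sudemycin the Plrg1 difference was 0.003 (edgeR adjusted p = 0.931), not a call, with means of 0.967 in WT and 0.971 in S34F mice. Rbm25 had a 54-bp exon (chr12:85001258-85001311, in frame) at 0.965 ± 0.020 in WT and 0.989 ± 0.004 in S34F vehicle mice, an event outside the rule for named events and chosen after its values were seen (ΔΨ 0.024, edgeR adjusted p = 0.0542, limma 0.636). That call was lost without WT vehicle mouse 1 or 5 or S34F vehicle mouse 5 (edgeR adjusted p = 0.101 to 0.205). Under sudemycin ΔΨ of the Rbm25 exon was 0.010 (edgeR adjusted p = 0.533), not a call. The skipping junction of this exon is not annotated.

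The Luc7l exon that shifts the frame (chr17:26390919-26390989) was called only when both changes were combined. Ψ was 0.160, 0.328, 0.369, 0.521 and 0.595 in WT vehicle and 0.422, 0.452, 0.491, 0.589 and 0.653 in S34F sudemycin mice. The groups overlapped (ΔΨ 0.127, edgeR adjusted p = 0.0142, limma 0.687), and the call was lost without WT vehicle mouse 4 or S34F sudemycin mouse 2 or 9 (edgeR adjusted p = 0.103 to 0.317). The groups in between stood at 0.461 ± 0.101 (WT sudemycin) and 0.484 ± 0.065 (S34F vehicle).

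Set against all cassette exons, the base at position -3 of the members' exons fell where most called exons fell. Under vehicle T stood at -3 in 34.6% of 36359 exons tested, in 79.1% of the 449 skipped more in S34F mice and in 5.10% of the 431 included more. Under sudemycin the shares were 34.8% of 36290, 81.0% of 480 and 6.56% of 381. All 3 member exons skipped more in S34F mice, 2 in Luc7l2 and 1 in Prpf39, have T, and the cassette exon of Rbm25, included more under vehicle, has C. For sudemycin against vehicle the shares lay closer together in WT mice, where T stood at -3 in 32.3% of the exons tested, 31.7% of those included more and 26.2% of those skipped more. In S34F mice the shares were 36.3%, 38.9% and 30.0%. A base at this position is a description of the exon and was not tested as a cause in any single gene.

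With all mice kept, the only event of the set called for the drug was the 53-bp exon of Prpf38b (chr3:108713261-108713313). This exon brings the stop codon shown above. Ψ was 0.068, 0.092, 0.107, 0.143 and 0.173 in WT vehicle mice and 0.219, 0.226, 0.253, 0.258 and 0.327 in WT sudemycin mice, from 56 to 221 inclusion and 171 to 460 skipping reads a mouse over the 20 mice. Every WT sudemycin mouse lay above every WT vehicle mouse (means 0.117 ± 0.042 and 0.257 ± 0.043, ΔΨ 0.140, edgeR adjusted p = 0.000305, limma 0.216). In S34F mice Ψ was 0.101, 0.105, 0.106, 0.119 and 0.125 with vehicle and 0.111, 0.179, 0.211, 0.220 and 0.230 with sudemycin. 4 of 5 S34F sudemycin mice lay above the highest S34F vehicle mouse (means 0.111 ± 0.010 and 0.190 ± 0.048, ΔΨ 0.079, edgeR adjusted p = 4.71e-05, limma 0.464). Over both genotypes ΔΨ was 0.110, called by edgeR (adjusted p = 2.60e-05) and by limma (adjusted p = 0.00633). The calls within each genotype remained without any single mouse, which for these event tests is no sign of stability. The 2-sided exact permutation test gave p = 0.00794 in WT mice, the smallest possible, and 0.0238 in S34F mice (0.0476 and 0.107 after adjustment over 36 tests), again for an exon picked by its calls in the same mice. The gene's total level, as given above, was lower with sudemycin at -0.18 ± 0.05 on the log2 scale over both genotypes, and whether the exon and the level are linked was not tested.

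**Figure D4:**
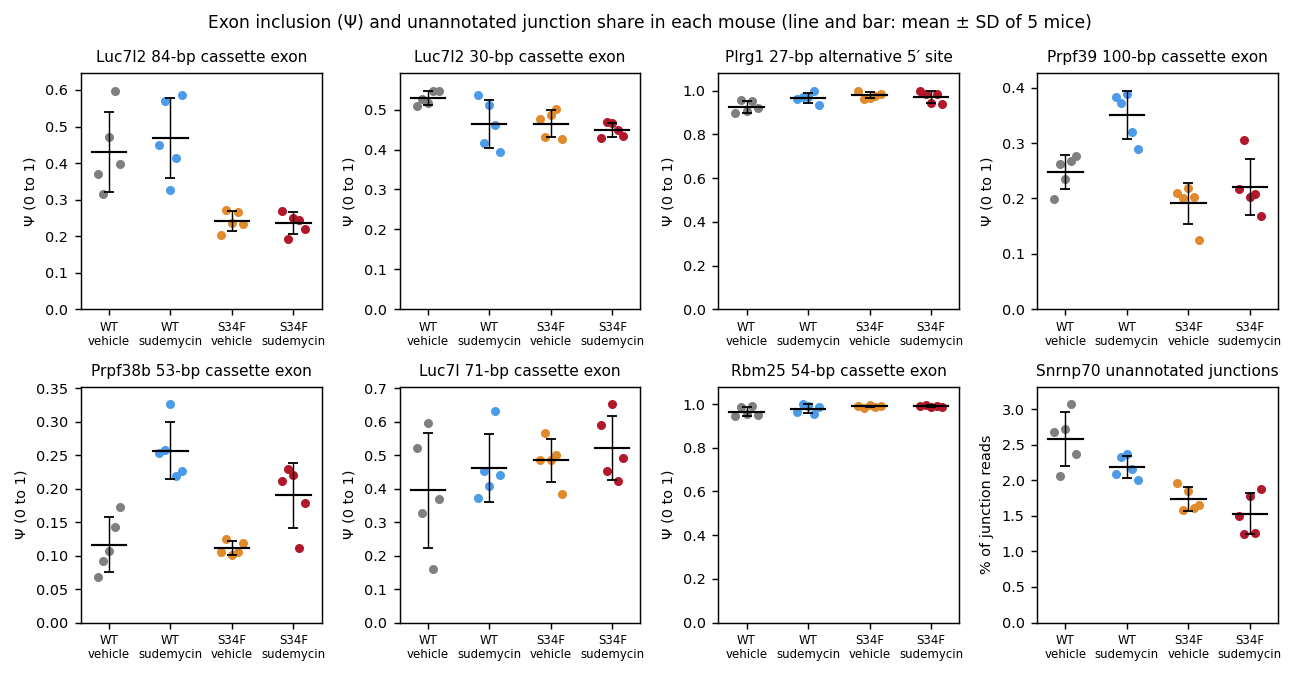
Ψ of 7 alternative exons or sites, and the percentage of Snrnp70 junction reads with an unannotated end, in each mouse, 1 point per mouse in the 4 groups, with the group mean and SD. The Luc7l2 84-bp exon lies at 0.19 to 0.27 in the 10 S34F mice and above 0.31 in the 10 WT mice, and the Prpf38b 53-bp exon lies higher with sudemycin in each genotype.

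Snrpb and Snrnp70 are known to carry regulated exons, and no splicing event tested in either gene was called. The 124-bp exon of Snrpb (chr2:130002365-130002488), which would end the reading frame after 70 of 231 codons, had a mean Ψ of 0.0054 over the 20 mice, from 0 to 50 inclusion reads beside 1076 to 2675 skipping reads. Its mean ΔΨ lay between -0.00216 and 0.00127 in the comparisons of genotype or drug. The 102-bp exon of Snrnp70 (chr7:52636087-52636188) had a mean Ψ of 0.999, with 0 to 6 skipping reads a mouse. It was taken as the tested cassette exon of the gene nearest to balance between inclusion and skipping. The exon is coding in 1 annotated transcript, and its skipping junction is not annotated. It was not identified as the known regulated exon of Snrnp70, for which no result is given here. At this depth the form of Snrnp70 without this exon was close to the limit of detection.

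Reads on junctions with 1 end outside the annotation were a small share of most members' junction reads. They were highest in Prpf38b, at 8.49% over the 20 mice, and in Prpf19, at 5.19%. Junctions with neither end annotated were not counted. Between genotypes under vehicle, 2 of 39 members differed in this share, against 1.12% of all genes, and both were lower in S34F mice. In Prpf38b the share was 8.07, 8.65, 8.77, 11.1 and 11.5% in WT and 4.59, 6.00, 6.15, 6.77 and 7.96% in S34F vehicle mice. All S34F values lay below those of the WT mice (means 9.62 ± 1.57% and 6.29 ± 1.23%, edgeR adjusted p = 0.068). In Snrnp70 it was 2.07, 2.37, 2.68, 2.72 and 3.07% in WT and 1.59, 1.61, 1.65, 1.85 and 1.97% in S34F vehicle mice, without overlap (means 2.58 ± 0.382% and 1.73 ± 0.167%, edgeR adjusted p = 0.0789). Limma on the share called neither. The Prpf38b call was lost without WT vehicle mouse 1 or 4 or S34F vehicle mouse 1, 7 or 11 (edgeR adjusted p = 0.12 to 0.172), and that of Snrnp70 without WT vehicle mouse 1, 3 or 4 or S34F vehicle mouse 3, 7 or 11 (edgeR adjusted p = 0.125 to 0.208). Under sudemycin and for the drug in either genotype edgeR called 0 members (1.21%, 0.241% and 0.381% of all genes), and limma called 0. An unadjusted edgeR p below 0.05 was reached by 3, 3 and 1 members. It was reached by 1196 of 11747, 894 of 11606 and 849 of 11824 genes. Between genotypes, Prpf38b differed by -3.24 percentage points under sudemycin and -3.32 under vehicle, and Snrnp70 by -0.656 and -0.849. Under sudemycin the edgeR adjusted p was 0.246 and 0.165. There Snrnp70 stood at 2.01 to 2.37% in WT and 1.25 to 1.88% in S34F mice, and the Prpf38b groups overlapped.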

How the data were processed

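RNA from the bone marrow of 20 mice had been depleted of ribosomal RNA and sequenced as stranded total RNA. Per the labels, the authors aligned the reads to the mouse genome mm9 with TopHat2 2.0.8 and used SAMtools, and they deposited whole-number counts of reads per gene and of reads per splice junction, without normalization. The programs that counted the reads are not given in the sources used here. The junction table marks each junction by whether its ends and their pairing are annotated. No column was left unmapped (0), and groups were taken from the sample labels. The authors' paper reports its own tests of the same tables, and none of its values was used.

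Genes were tested over the whole table with edgeR 4.0.16 (low counts filtered, TMM scaling, robust quasi-likelihood fit, Benjamini-Hochberg adjustment), and a call was an adjusted p below 10%, the study's threshold. Pairwise comparisons used only their own mice. The p-values measure the spread between these mice, whose donors were pooled. Of 37620 gene IDs, 37205 matched a symbol. CPM were TMM-scaled, and RPKM used the union of annotated exons, which overlapping transcripts can distort. Splicing events needed a mean of 10 reads a mouse. Ψ was the mean of the reads on both inclusion junctions over its sum with the skipping reads (for alternative splice sites, reads of the longer form over those of both), and was tested in edgeR with a term for each mouse, a dispersion of 0 and a quasi-dispersion, a form settled with earlier results known. Unannotated junction shares, from junctions with 1 annotated end, were tested per gene in the same form. Scripts were tested on simulated data. Alternatives were DESeq2 1.42.0, limma 3.58.1, other filters and thresholds, 1 model of all mice, a block for mouse number and each mouse left out, and, added after seeing the data, reads on annotated junctions and annotated skipping junctions only.

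The 39 members and all lists were chosen with earlier results of these data known. Given in full were, in each of 8 role groups and each comparison of genotype or drug, the up to 3 called members with the largest log2 fold change, or the member with the smallest p where a group had no call, and the up to 3 called events with the largest ΔΨ, with 1 exon each of Snrpb and Snrnp70. Exact permutation tests of named exons were 2-sided. Sequences were read from the NCBIM37 genome and annotation. Protein sequences were not used here.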

Additional observations from a re-analysis of the deposited data

Results flagged for a closer look

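In 10 of 136 groups of 5 mice (7.35%), 1 mouse lay so far from the other 4 that its gap exceeded Dixon's 95% critical value of 0.71, where chance alone flags about 1 group in 20. WT vehicle mouse 2 had 27.5 CPM of Snrpa (others 18.04 to 20.2) and 74.0 CPM of Prpf19 (others 56.1 to 60.8). S34F vehicle mouse 7 had 15.6 CPM of Snrpa (others 19.6 to 20.8) and 181 CPM of Rbm25 (others 152 to 156). WT sudemycin mouse 12 had 151 CPM of Rbm25 (others 106 to 112). For Prpf38b, WT sudemycin mouse 9 had 88.5 CPM (others 69.7 to 74.5) and S34F sudemycin mouse 10 had 61.4 CPM (others 71.6 to 74.9995). The Prpf39 exon stood at a Ψ of 0.126 in S34F vehicle mouse 11 (others 0.2 to 0.219), a group that enters no call of that exon. The Snrnp70 exon, at a Ψ of 1 in the others of its groups, stood at 0.998 in WT vehicle mouse 2 and 0.98998 in WT sudemycin mouse 6. The call of Rbm25 under vehicle remained without S34F vehicle mouse 7, and that of Prpf38b between the treatments of S34F mice was lost without any 1 of 7 of the 10 mice, S34F sudemycin mouse 10 among them.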

How the results depend on the processing

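Expression calls of the members between genotypes moved by at most 1.5 times under the alternatives run, from 18 to 12 under sudemycin with the replicate block over 8 of the 10 mice, and no named result reversed under any of them. The 2 drug calls in WT mice became 4 with DESeq2 and with 1 model of all 20 mice, and 1 when genes with at least 1 count were kept, when the false discovery rate was held below 5% and on annotated junction reads. The 6 drug calls in S34F mice became 11 with DESeq2, 3 below 5%, 2 with 1 model of all mice and 3 on annotated junction reads, and the 11 of the fit over both genotypes became 6 on annotated junction reads. Of the 3 in S34F mice on annotated junction reads, only 2 were among the 6. Besides those of Ddx23, Prpf3 and Prpf38b, a call among Snrpd3, Prpf8 and Snrnp200 was thus also lost there. Most splicing calls did not stand under limma, which kept the 1 call of the drug fit over both genotypes and gave 0 for genotype under vehicle, 0 under sudemycin, 0 for the drug in WT and 0 in S34F mice, and 1 in the combined comparison, while an estimated dispersion gave 0 in all of these and in the drug fit. With annotated skipping junctions only, where fewer events were tested, the 4 calls for genotype under vehicle became 2 and the 8 of the combined comparison became 3. The 2 calls on unannotated junctions became 0 with limma. Unless another is stated, the cause was not tested.

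With each mouse left out in turn, member calls ranged from 13 to 21 for genotype under vehicle, 14 to 19 under sudemycin, 1 to 3 for the drug in WT mice, 2 to 9 in S34F mice, 9 to 15 in the fit over both genotypes, 27 to 30 in the combined comparison and 0 for the interaction. Splicing calls ranged from 3 to 6, 2 to 5, 2 to 3 and 1 to 2 in the first 4 of these and 4 to 7 in the combined comparison, and unannotated shares from 0 to 2 and 0 to 1 between genotypes and 0 for the drug. The event calls kept without a mouse are no sign of stability, since in all 10 such fits of each pairwise comparison the median prior degrees of freedom were infinite, so that for most events the spread came from all events together. For the drug in WT mice the calls over all events were 315 with all mice and 559 to 750 without 1 of them, while those for genotype under vehicle were 1032 and 1001 to 1371. The cause of this rise was not tested. Of 390 refits of named members 318 kept the call, and of 140 of named exons 121.

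Mice of the 2 genotypes share some numbers, but nothing in the labels ties them, and same-numbered mice deviated together only in part, with r of 0.12, 0.15 and -0.11 under vehicle and -0.04, 0.27, 0.37 and -0.18 under sudemycin. With the number as a replicate block over the 6 and 8 mice that share one, 19 and 12 members were called, as many as without the block in the same mice, and member events fell to 0 and 1, from 1 and 2 in the same mice without it. No paired analysis was possible for the drug because those groups share no pairs of numbers. The sequencing depth limits mainly exons near a Ψ of 0 or 1, where few reads carry the rarer form.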

Other observations

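The reads on unannotated junctions of Prpf38b and Snrnp70 came largely from a few junctions. By definition each of these has 1 annotated end. In Prpf38b the junction at chr3:108711001-108711244 (- strand) held 36.8% of these reads, with means of 72.4 reads in WT vehicle, 70.4 in WT sudemycin, 55.6 in S34F vehicle and 44.4 in S34F sudemycin mice, and that at chr3:108708252-108708836 held 27.1%, with means of 61.6, 55.4, 25.4 and 36.0. In Snrnp70 the junction at chr7:52650185-52650463 (- strand) held 26.0% of these reads, with means of 73.2, 68.8, 45.6 and 40. The next held 18.2%, with means of 68.0, 39.4, 29.0 and 22.4. The third, at chr7:52635988-52636087, held 12.3%, with means of 28.8, 22.4, 31.2 and 25. The third of Prpf38b held 9.47%, with means of 17, 22.6, 8.4 and 14.4. These means are not scaled to the depth of the mice, and the median gene counts were 47756240 in WT vehicle and 55758927 in S34F vehicle mice. A small difference between genotypes in a single junction can therefore not be read from them.

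Transcripts with a retained intron are annotated for 18 of the 39 members (46.2%) and for 32.8% of 13685 protein-coding genes tested. Such introns give no junction read and were not measured here.

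By exon length, the members' lean under sudemycin was again in the shorter genes. From the shortest to the longest of 4 classes the members' median log2 fold changes between genotypes were 0.31, 0.28, -0.03 and -0.07, and those of all genes 0.01, -0.01, -0.04 and -0.05. The 4 drug calls above vehicle in S34F mice other than Snrpd3 were all in the class of the longest genes, which holds 12 members.

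Beside the B-cell, neutrophil and stem or progenitor lists given above, 1 of 7 monocyte and macrophage genes was higher and 4 were lower in S34F mice under vehicle, and 2 were higher and 2 lower under sudemycin. Of 8 erythroid genes 1 was lower under vehicle and 3 under sudemycin, and of 5 megakaryocyte genes 1 was higher and 2 were lower, then 2 lower. Of 8 T and NK cell genes 3 were higher and 1 was lower under vehicle and 3 were lower under sudemycin, and of 6 stromal genes 1 was higher and 1 lower, then 1 lower. Against vehicle, sudemycin gave 1 call among these 5 lists in WT mice, a lower monocyte gene, and in S34F mice 1 higher monocyte gene and 2 lower genes each of erythroid, T and NK and megakaryocyte lists.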
